A study of Mus musculus with 48 samples.

Results

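The overlapping genes of the mouse ribosomal RNA repeat, Gm42418, AY036118 and CT010467.1, were examined in amygdala punches. They were 3 of the 52636 genes measured. They were chosen by symbol, and each symbol was mapped to 1 Ensembl identifier. AY036118 and CT010467.1 had first been picked from the genotype difference in imipramine mice, so for the 3 genes every comparison that holds an imipramine library is given as a description, without a test, and they were tested only among vehicle and fluoxetine mice. Other genes were tested in all comparisons. Among vehicle-treated mice, AY036118 and CT010467.1 were higher in each of the 8 Brd1+/- libraries than in any of the 8 WT libraries. How many of all genes were separated like this was not counted. Both genes were called there, as were 0.708% of the 24279 genes tested. In mice given fluoxetine the libraries of both genotypes shared a range. Gm42418, on the other strand of the same bases, was not called in any tested comparison.

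The RNA came from 48 female mice of the strain C57BL/6NTac-Brd1, 8 in each of 6 groups. WT mice and mice heterozygous for a targeted deletion within Brd1 (Brd1+/-), an epigenetic regulator gene, had been given vehicle (saline), the tricyclic imipramine (IMN) at 10 mg/kg or the serotonin reuptake inhibitor fluoxetine (FLX) at 5 mg/kg. Per the study's methods the mice were young adults that had gone through behavioural tests before tissue collection. The study asked whether reduced Brd1 expression alters gene expression in the brain and whether antidepressants act on it. Brd1 itself had between 16.6 and 30.6 TPM in the Brd1+/- libraries and between 24.9 and 41.0 TPM in the WT libraries, with a lower mean in Brd1+/- mice under each treatment. TPM is a length-scaled share of a library's transcripts that sums to the same total in each library. It retains no sequencing depth, so the number of reads behind a value is unknown.

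Ribosomal RNA makes up most of the RNA of a cell. RNA polymerase I transcribes the repeat as a long precursor, in which an external transcribed spacer is followed by the 18S, 5.8S and 28S rRNAs with internal spacers between them, and the precursor is cut to the mature rRNAs in the nucleolus. Mature rRNAs lack a poly(A) tail, and libraries from messenger RNA are prepared so as to leave them out. The repeats stand in large arrays that genome assemblies mostly leave out, and in the mouse assembly GRCm38 a stretch on chromosome 17 holds rRNA repeat sequence to which reads of rRNA can align.

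Per GENCODE M21, CT010467.1 (ENSMUSG00000106106, class rRNA) lies on the minus strand of GRCm38 at chr17:39846353-39848827 and has a transcript of 1849 bases and a pseudogene transcript of 714 bases. Gm42418 (ENSMUSG00000098178, class lincRNA) lies on the plus strand at chr17:39846958-39848788 and has 1 exon of 1831 bases. AY036118 (ENSMUSG00000105361, class lincRNA) lies on the minus strand at chr17:39847113-39848035 and has 1 exon of 923 bases. All 923 bases of AY036118 (100%) lay inside both other genes, and 99.5% of the bases of Gm42418 lay inside CT010467.1. CT010467.1 alone covered 644 of its 2466 exonic bases. Of the 2426 places where a read of 50 bases could start within the locus and stay inside at least 1 of the 3 genes, 69.7% were inside 2 or 3 of them. Strand use in counting is not given in the sources used here, so the division of reads among the 3 genes is uncertain.

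The end of CT010467.1 is shown because it identifies the sequence. Its last 60 bases and the same bases read on the plus strand follow, at chr17:39846353-39846412 of GRCm38, with capitals for the 20 bases that begin the mature 18S rRNA when read on the plus strand and end the annotated minus-strand transcript.
CT010467.1, minus strand: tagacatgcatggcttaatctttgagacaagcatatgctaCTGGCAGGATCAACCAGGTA
Plus strand: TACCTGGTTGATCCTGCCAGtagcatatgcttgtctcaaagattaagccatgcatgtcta

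CT010467.1 is thus annotated opposite to 18S rRNA, and Gm42418, which begins at base 606 counted from the first plus-strand base of CT010467.1, runs in the same direction as 18S rRNA. The next pair shows bases that all 3 genes cover, at chr17:39847976-39848035 of GRCm38. Capitals mark the first 50 bases of AY036118, the length of 1 read, and their complement in Gm42418.
AY036118, minus strand: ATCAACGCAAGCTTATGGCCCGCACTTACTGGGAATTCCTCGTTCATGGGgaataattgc
Gm42418, plus strand: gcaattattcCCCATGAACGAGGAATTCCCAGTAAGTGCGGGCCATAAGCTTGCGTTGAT

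A read of these 50 bases could come from any of the 3 genes unless its strand was used. All 4731 overlapping base pairs compared between the annotated transcripts were the same base. The annotation was searched for exact runs of 50 and of 30 bases shared with the 3 genes, the neighbour Gm26917 left out. No other gene shared such a run with their transcripts on either strand. The lincRNA Gm26917 (chr17:39843013-39846341, plus strand) ends 11 bases before CT010467.1 begins, on the side of the external transcribed spacer, and shares no base with the 3 genes. Whether runs of its sequence recur in them was not searched. Its last 60 bases are shown, in lower case, since it gives a reading of neighbouring sequence outside their positions (chr17:39846282-39846341, GRCm38).
Gm26917, plus strand: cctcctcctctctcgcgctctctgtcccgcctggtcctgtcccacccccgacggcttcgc

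**Figure D1:**
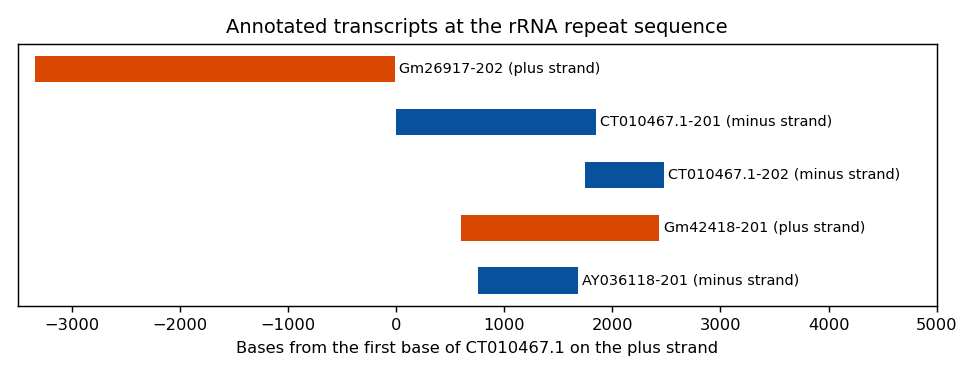
Each bar spans an annotated transcript, with its position in bases from the first plus-strand base of CT010467.1 on the x axis, in orange for the plus strand and blue for the minus strand. AY036118 lies wholly inside both Gm42418 and CT010467.1, and Gm26917 ends 11 bases before them; the 4 exons of the shorter CT010467.1 transcript are drawn as 1 span.

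AY036118 was the highest of the 3 genes in all 48 libraries, and Gm42418 was the lowest in all 48. Over the 48 libraries the median was 606 TPM for AY036118, 225 TPM for CT010467.1 and 39.9 TPM for Gm42418. The summed level of the 3 genes made up between 0.0401% and 0.440% of a library's TPM. Weighted by exonic length, which brings TPM closer to a share of reads, it made up between 0.0144% and 0.136%. The ratio of AY036118 to CT010467.1 stayed within 2.17 and 3.33 in all libraries, whereas Gm42418 varied from 0.208% to 12.9% of the sum.

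AY036118, the minus-strand gene inside the other two, had from 368 to 770 TPM in WT vehicle libraries, with a median of 452 TPM. In Brd1+/- vehicle libraries it had from 941 to 3374 TPM, with a median of 1107 TPM. The groups did not overlap, so the lowest Brd1+/- library exceeded the highest WT library. How many of all genes were separated in this way was not counted. Mir6236, Malat1, Rn7s1 and Rn7s2, described below, were also separated. Brd1+/- vehicle replicate 3 stood far above the others at 3374 TPM, and the next library had 1434 TPM. The means were 1399 ± 821 and 492 ± 140 TPM (SD, n = 8 each), a ratio of 2.84. The log2 difference was 1.41 ± 0.24 (SE, adjusted p = 0.00558 in limma), and the exact permutation test gave p = 0.000155, the smallest that 8 against 8 libraries allow. Without replicate 3 the Brd1+/- mean was 1117 ± 208 TPM (SD, n = 7), 2.27 times the WT mean, and the log2 difference was 1.21.

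CT010467.1, the gene annotated opposite to 18S rRNA, had from 137.6 to 262.5 TPM in WT vehicle libraries, with a median of 182 TPM. In Brd1+/- vehicle libraries it had from 301 to 1012 TPM, with a median of 382.4 TPM. These groups did not overlap either, and Brd1+/- replicate 3 was again the highest library. The means were 456 ± 231 and 193 ± 42.1 TPM (SD, n = 8 each), a ratio of 2.36. The log2 difference was 1.16 ± 0.21 (SE, adjusted p = 0.00947 in limma; exact permutation p = 0.000155). Without replicate 3 the ratio of means was 1.95. Since reads of AY036118 can also be reads of CT010467.1, both differences may rest on the same reads and are not separate evidence.

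Gm42418, in the direction of 18S rRNA, had from 3.97 to 78.4 TPM in WT vehicle libraries and from 3.31 to 56.4 TPM in Brd1+/- vehicle libraries, with medians of 36.9 and 17.7 TPM. The ranges overlapped over most of their length. The log2 difference was -0.74 ± 0.72 (SE, adjusted p = 0.860 in limma; exact permutation p = 0.359), with a 95% interval from -2.26 to 0.78. Thus 2 of the 3 genes were called in vehicle mice, where 0.708% of the 24279 genes tested were called. With bulk tissue, more cells that hold such RNA and more of it per cell cannot be told apart. A different carry-over of rRNA into the libraries was not tested either, and how RNA was selected is not given.

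**Figure D2:**
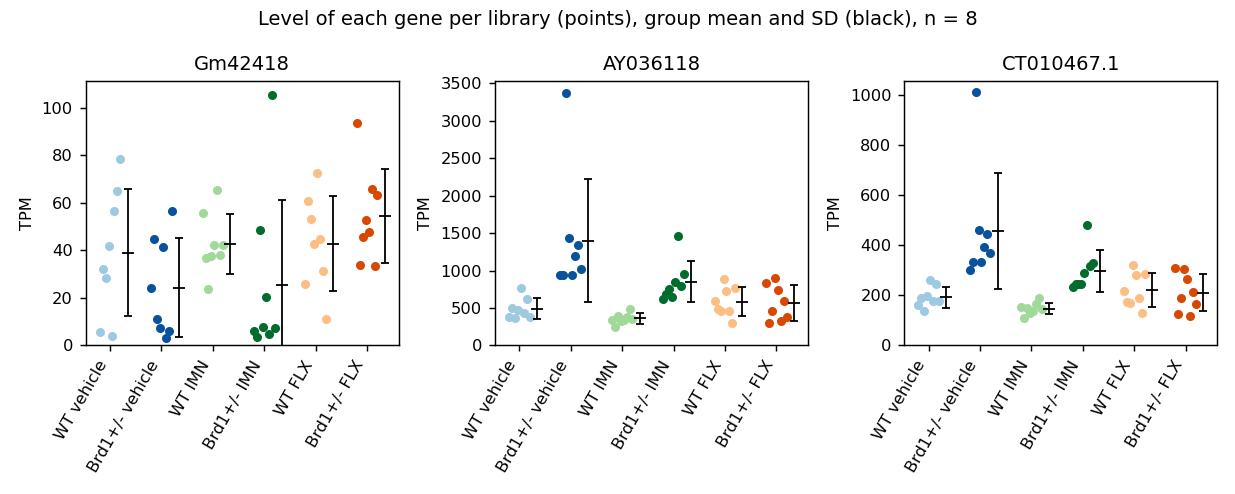
Points are libraries, black marks are the mean and SD of the 8 libraries of a group, and the y axis is the level in TPM on a linear scale for each gene. For AY036118 and CT010467.1 the Brd1+/- vehicle libraries lie wholly above the WT vehicle libraries, with 1 library at 3374 and 1012 TPM, and in FLX mice both genotypes share a range; Gm42418 spreads widely within groups.

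In FLX mice AY036118 ranged from 305 to 892 TPM in WT libraries (median 538 TPM) and from 301 to 901 TPM in Brd1+/- libraries (median 522 TPM). CT010467.1 ranged from 128 to 321 TPM in WT libraries and from 118 to 308 TPM in Brd1+/- libraries. The genotypes spanned nearly the same range for both genes. The log2 differences were -0.10 ± 0.26 for AY036118 (SE, adjusted p = 0.893 in limma; exact permutation p = 0.732) and -0.09 ± 0.23 for CT010467.1 (SE, adjusted p = 0.887; exact permutation p = 0.723). Their 95% intervals ran from -0.65 to 0.46 and from -0.58 to 0.40 on the log2 scale. Gm42418 stood at 54.5 ± 19.7 TPM in Brd1+/- and at 42.8 ± 19.9 TPM in WT FLX mice (SD, n = 8 each), and they differed by 0.46 ± 0.32 on the log2 scale (SE, adjusted p = 0.522). None of the 3 genes was called between genotypes in FLX mice by limma, where 1.54% of 23635 genes were. At an unadjusted p under 0.05 there were 0 of the 3, beside 16.6% of all genes.

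Within Brd1+/- mice the FLX libraries were compared with the vehicle libraries. The highest FLX library of AY036118, at 901 TPM, lay below the lowest vehicle library, at 941 TPM. The log2 difference was -1.28 ± 0.29 (SE), with an adjusted p = 0.0523 in limma that missed the threshold of 0.05 and an exact permutation p = 0.000155. For CT010467.1 the log2 difference was -1.09 ± 0.25 (SE, adjusted p = 0.0625 in limma; exact permutation p = 0.000466), and its groups overlapped. AY036118 passed the threshold after median-ratio scaling (adjusted p = 0.0448 in limma). AY036118 also passed without Brd1+/- FLX replicate 1 or 4 (adjusted p = 0.0413 and 0.0357), and CT010467.1 without Brd1+/- FLX replicate 1 (adjusted p = 0.0467). However, AY036118 stayed uncalled in 9 of 11 other settings, with an adjusted p up to 0.224 in limma. It also stayed uncalled in 14 of 16 fits without 1 library (up to 0.160). For CT010467.1 these were 10 of 11 (up to 0.253) and 15 of 16 (up to 0.181). Gm42418 had the opposite sign, with 54.5 TPM in FLX and 24.3 TPM in vehicle mice and a log2 difference of 1.69 ± 0.52 (SE, adjusted p = 0.274 in limma; exact permutation p = 0.0104). None of the 3 genes was called here by the main limma fit, where 0.731% of 24336 genes were. All 3 had an unadjusted p under 0.05, as did 6.94% of all genes.

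In WT mice FLX and vehicle libraries overlapped for all 3 genes. The log2 differences were 0.22 ± 0.21 for AY036118, 0.16 ± 0.18 for CT010467.1 and 0.49 ± 0.59 for Gm42418 (SE, adjusted p = 0.632, 0.718 and 0.729 in limma). None of the 3 was called or had an unadjusted p under 0.05. Of 23557 genes, 0.335% were called and 16.8% had an unadjusted p under 0.05. Of the 12 exact permutation tests over the 3 genes and 4 comparisons, 5 gave a p under 0.05, and these p-values were not adjusted.

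The difference between the FLX effects in the 2 genotypes was tested directly. It was -1.50 ± 0.37 on the log2 scale for AY036118 (SE, adjusted p = 0.0277 in limma) and -1.25 ± 0.32 for CT010467.1 (SE, adjusted p = 0.0397). Both effects were thus lower in Brd1+/- than in WT mice, and 2 of the 3 genes were called where 1.71% of 26657 genes were. The call of CT010467.1 was lost when a term for low and high sample codes, split separately for vehicle and drug mice, was added (adjusted p = 0.0523) and in 17 of the 32 fits that left out 1 library, in which its adjusted p ran from 0.0226 to 0.0663. AY036118 passed in all 32 such fits (adjusted p from 0.0141 to 0.0479). For Gm42418 the interaction was 1.20 ± 0.82 (SE, adjusted p = 0.491). This test and the vehicle comparison share the vehicle libraries and are not independent.

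**Figure D3:**
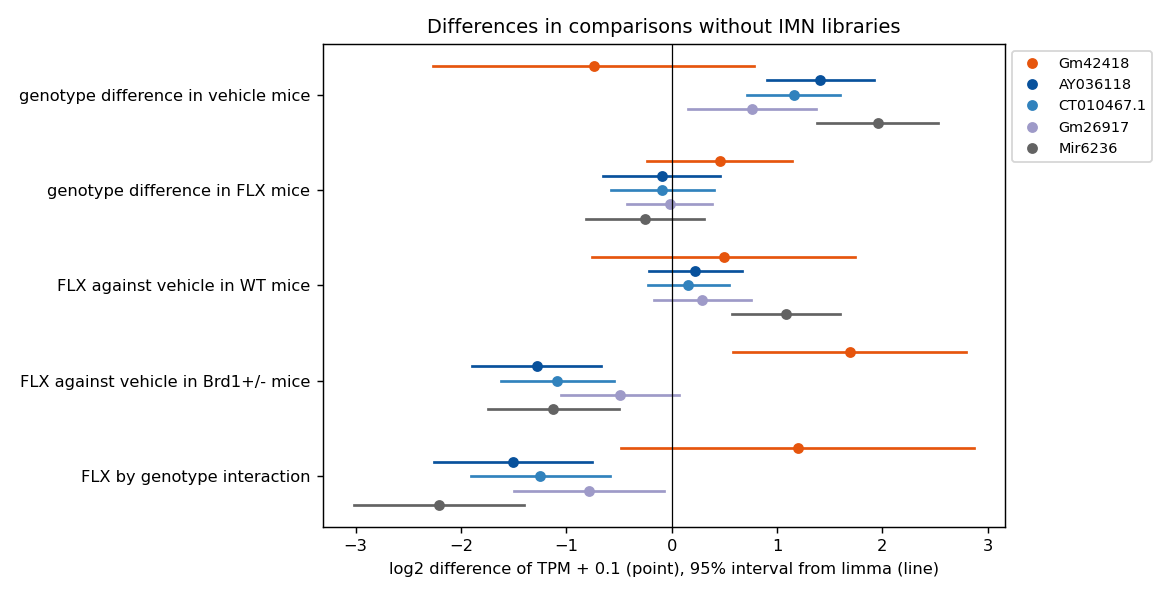
Each point is a log2 difference of TPM + 0.1 for 1 gene in 1 comparison without IMN libraries, and each line is its 95% interval from limma; rows are comparisons and colours are genes. In vehicle mice the intervals of AY036118 (1.41), CT010467.1 (1.16), Gm26917 (0.76) and Mir6236 (1.96) lie above 0, and in FLX mice the intervals of all 5 genes include 0.

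The IMN libraries are described only. AY036118 had from 252.8 to 493.001 TPM in WT IMN libraries (median 351.02 TPM) and from 626 to 1466 TPM in Brd1+/- IMN libraries (median 774 TPM). CT010467.1 had from 111 to 188 TPM and from 233 to 481 TPM, respectively. Neither gene overlapped between the genotypes, the contrast from which both had been picked, so this separation is no separate evidence. Brd1+/- IMN replicate 6 was the highest library for both. The ratios of means were 2.36 for AY036118 and 2.02 for CT010467.1, and without replicate 6 they were 2.11 and 1.84. Gm42418 lay between 23.9 and 65.2 TPM in WT IMN libraries and between 3.53 and 105 TPM in Brd1+/- IMN libraries, with medians of 40.2 and 7.61 TPM. Among all 23581 genes tested between genotypes in IMN mice 0.017% were called, which is the contrast that chose 2 of the genes.

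Between IMN and vehicle libraries the values of AY036118 overlapped in both genotypes. Its mean was 360 ± 67.8 TPM in WT mice given IMN, beside 492 TPM under vehicle (SD, n = 8). In Brd1+/- mice it was 848 ± 272 TPM under IMN (SD, n = 8), beside 1399 TPM under vehicle. Means were thus lower in IMN than in vehicle mice in both genotypes, with log2 differences of -0.43 in WT and -0.63 in Brd1+/- mice. For CT010467.1 these were -0.38 and -0.54. Against IMN, the FLX libraries of AY036118 differed by 0.65 in WT and by -0.65 in Brd1+/- mice on the log2 scale. By mean, the order of the groups for AY036118 was Brd1+/- vehicle, Brd1+/- IMN, WT FLX (586 TPM), Brd1+/- FLX (565 TPM), WT vehicle and WT IMN. Neighbours in this order overlapped in their libraries.

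The labels give each mouse a numeric sample code without explaining it. Vehicle mice have lower codes than all drug mice, so codes and treatment with a drug cannot be told apart. Within each treatment the codes were split here into a lower and a higher range, at 130 for vehicle mice, where they show no gap, and at 400 for drug mice. The genotype difference of AY036118 in vehicle mice was 1.41 on the log2 scale in both the lower range (3 against 3 libraries) and the higher range (5 against 5 libraries), and the groups did not overlap in either. For CT010467.1 it was 1.15 and 1.16, again without overlap. For Gm42418 it was -2.32 in the lower and 0.21 in the higher range, so its sign depended on the range. In IMN mice AY036118 differed between genotypes by 1.18 in the lower range (6 against 4 libraries) and by 1.02 in the higher range (2 against 4 libraries), without overlap.

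AY036118 and CT010467.1 varied together from library to library. After removal of the group means from log2(TPM + 0.1), Pearson's r was 0.98 and Spearman's rho 0.96 over the 48 libraries, and r was 0.97 without the 2 libraries farthest from the median of AY036118. Within the 6 groups r ran from 0.93 to 0.99 (n = 8 each). The pair shares bases and, possibly, reads. Gm42418 shares the same bases on the other strand, yet its r with AY036118 was -0.19 (rho -0.21; -0.14 without the 2 farthest libraries) and with CT010467.1 -0.14 (rho -0.16; -0.11). These correlations are descriptions of libraries that share a TPM scale.

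**Figure D4:**
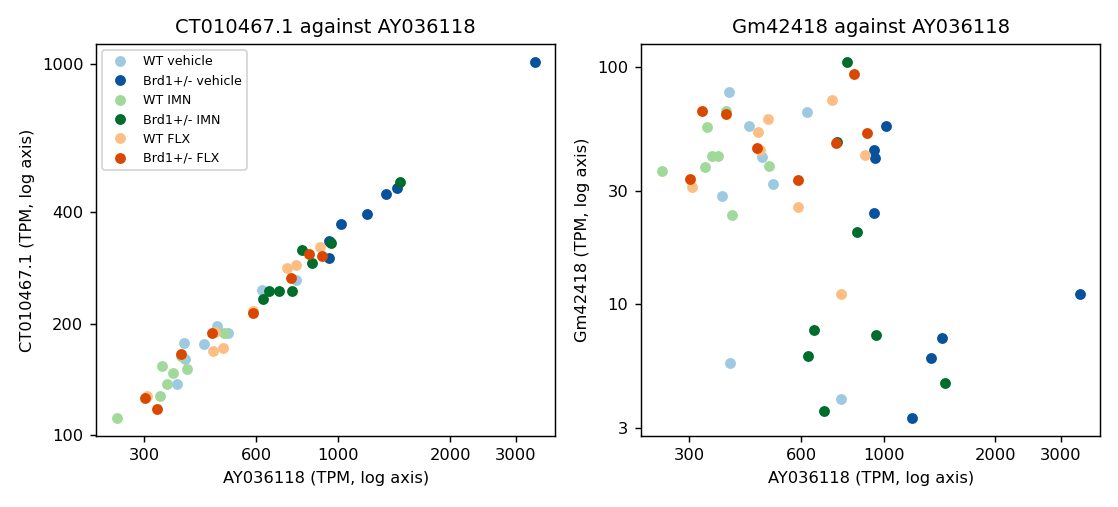
Each point is 1 of the 48 libraries, coloured by group, with AY036118 on the x axis and CT010467.1 (left) or Gm42418 (right) on the y axis, in TPM on log axes. CT010467.1 follows AY036118 closely (r = 0.98 after removal of group means), and Gm42418 does not (r = -0.19).

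Gm26917, the neighbour on the spacer side, had 10.2 ± 6.11 TPM in Brd1+/- mice given vehicle and 5.74 ± 2.62 TPM in their WT counterparts (SD, n = 8 each). The groups overlapped, and Brd1+/- replicate 3 was again the highest library, at 24.9 TPM. Its log2 difference of 0.76 ± 0.29 (SE) had an adjusted p = 0.429 in limma and a 95% interval from 0.16 to 1.37. Without replicate 3 the ratio of means was 1.41 instead of 1.78. In IMN mice it was at 6.20 ± 1.18 TPM in Brd1+/- and at 4.28 ± 0.91 TPM in WT mice (SD, n = 8 each; adjusted p = 1.00 in limma), and in FLX mice 6.75 and 6.73 TPM (adjusted p = 0.971). Its r with the summed 3 genes, group means removed, was 0.43 (rho 0.36), and 0.24 without the 2 farthest libraries.

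The genes whose levels followed the summed 3 genes most closely were sought among genes with a mean of at least 1 TPM, by Pearson's r over the 48 libraries after removal of group means. All 5 were short genes annotated as class miRNA. Mir6236 (ENSMUSG00000098973) came first, with r = 0.86 and rho = 0.87, and r = 0.80 without the 2 farthest libraries. The other four, Gm23935, Gm25911, Gm24245 and Gm24187, had r between 0.57 and 0.59. The sequences of a pair of these genes are shown because they tell how far their readings are separate from each other. Lower case is used throughout, except that a capital marks a base that differs from Gm23935.
Gm23935: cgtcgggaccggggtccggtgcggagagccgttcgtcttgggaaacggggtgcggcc
Gm24187: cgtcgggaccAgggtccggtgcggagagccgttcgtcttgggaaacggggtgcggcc

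Gm24245 (chr4:139338304-139338360, plus strand) has the same 57 bases as Gm23935 (chr16:11144125-11144181, plus strand). Gm24187 (chr13:9834469-9834525, minus strand) differs from Gm23935 by G11A, counted from the first base of the transcript, with the base of Gm23935 first. Gm25911 (chr1:167340369-167340424, minus strand) has 56 bases and shares a run of 23 of them with Gm23935. Reads of Gm23935 and Gm24245 can therefore not be told apart. The longest run that Gm24187 shares with Gm23935 is 46 bases. The longest run that Gm23935 shared with a transcript of the 3 rRNA genes was 8 bases. No other part of the rRNA repeat was compared with these miRNA-class genes or with Mir6236. Whether they hold rRNA sequence was therefore not tested. A gene of 57 bases receives a large TPM from few reads.

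Mir6236 had from 25.2 to 57.7 TPM in WT vehicle libraries and from 126.2 to 562.3 TPM in Brd1+/- vehicle libraries. The groups did not overlap, and Brd1+/- replicate 3 was the highest library. The log2 difference was 1.96 ± 0.27 (SE, adjusted p = 0.000899 in limma), and without replicate 3 the ratio of means was 3.23 instead of 4.32. In FLX mice it stood at 86.3 ± 32.8 TPM in Brd1+/- and at 104 ± 41.3 TPM in WT mice (SD, n = 8 each), and they differed by -0.26 ± 0.27 on the log2 scale (SE, adjusted p = 0.680). The interaction with FLX was -2.21 ± 0.39 (SE, adjusted p = 0.00278 in limma), and in WT mice Mir6236 differed between FLX and vehicle by 1.09 ± 0.24 (SE, adjusted p = 0.0575). In IMN mice the genotypes had 120 ± 50.4 and 56.5 ± 14.7 TPM (SD, n = 8 each; adjusted p = 0.585). Among vehicle-treated mice Gm23935 was at 477 ± 270 TPM in Brd1+/- and at 196 ± 151 TPM in WT animals (SD, n = 8 each), with overlapping groups and an adjusted p = 0.249 in limma.

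**Figure D5:**
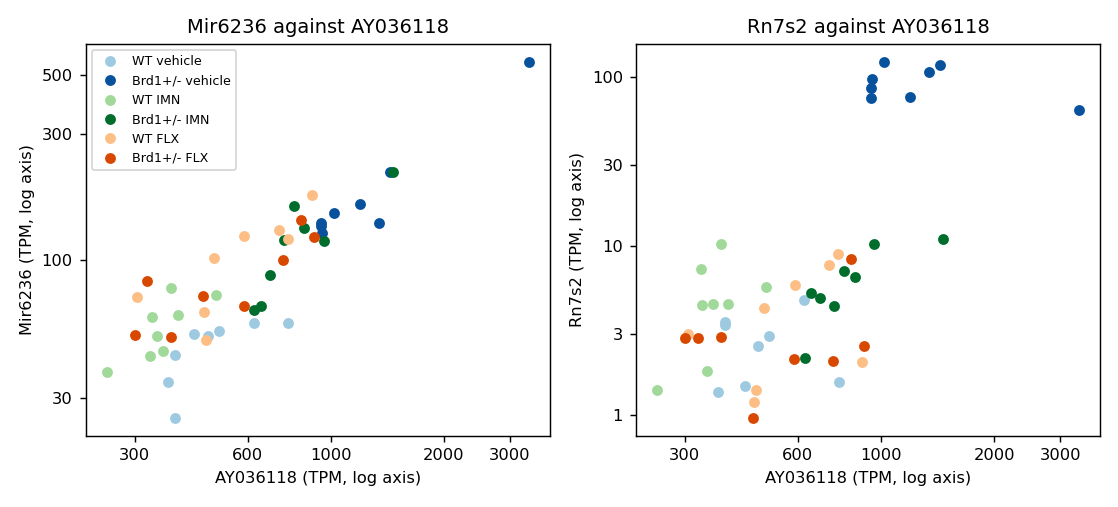
Each point is 1 of the 48 libraries, coloured by group, with AY036118 on the x axis and Mir6236 (left) or Rn7s2 (right) on the y axis, in TPM on log axes. Libraries high in AY036118 tend to be high in Mir6236, although FLX against vehicle in WT mice was 1.09 for Mir6236 and 0.22 for AY036118 (log2). Rn7s2 sets the 8 Brd1+/- vehicle libraries apart at 64.1 to 123.6 TPM, above at most 11.1 TPM elsewhere.

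The mitochondrial rRNAs, which are transcribed from the mitochondrial genome and carry short tails of adenosines, were not called in any comparison by limma. In vehicle mice mt-Rnr1, the small subunit rRNA, was at 5165 ± 799 TPM in Brd1+/- and at 5127 ± 872 TPM in WT mice (SD, n = 8 each). They differed by 0.01 ± 0.14 on the log2 scale (SE, adjusted p = 0.991 in limma), with a 95% interval from -0.27 to 0.30. For mt-Rnr2, the large subunit rRNA, the log2 difference was 0.04 ± 0.14 (SE, adjusted p = 0.973). Their r with the summed 3 genes was 0.06 and 0.15 (rho 0.11 and 0.20; 0.16 and 0.27 without the 2 farthest libraries). Of the other nuclear genes of class rRNA, 56.9% were listed at 0 in all libraries, and 20 genes passed the filter on low values in the vehicle comparison. One of these, Gm26280, was called higher in Brd1+/- vehicle mice, with 12.9 ± 1.79 against 7.32 ± 2.11 TPM (SD, n = 8 each; adjusted p = 0.0214 in limma). With a minimum of 1 TPM in at least 8 libraries this call was lost, with 0 of 15 such genes called by limma (2 at an unadjusted p under 0.05). The median log2 difference of the 20 was -0.10, beside 0.03 over all genes tested. The longest run that Gm26280 shared with a transcript of the 3 genes was 9 bases, and no gene of the class shared 30. Its call is thus not a second reading of their sequence.

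The proteins that make rRNA were read from 2 lists. Of 21 genes of RNA polymerase I and its factors 0 were called in vehicle mice by limma (2 at an unadjusted p under 0.05), and 5 of the 21 had a positive log2 difference. Their median was -0.07, beside 0.03 over all genes. Of 35 genes of rRNA processing and assembly 0 were called (1 at an unadjusted p under 0.05), with a median of -0.05. Between FLX and vehicle in Brd1+/- mice 0 genes of either list were called by limma (1 and 0 at an unadjusted p under 0.05), with medians of 0.09 and 0.03 beside -0.04 over all genes. Of 9 genes often listed as holding rRNA-like sequence, Gm26917 among them, 8 were tested in vehicle mice and 0 were called by limma (2 at an unadjusted p under 0.05). Of all genes tested, 8.52% had an unadjusted p under 0.05 in vehicle mice and 6.94% between FLX and vehicle in Brd1+/- mice.

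Other RNAs that end without a poly(A) tail also differed between the vehicle groups. Rn7s2 and Rn7s1, near-identical copies of 7SL RNA, a part of the signal recognition particle, had 93.8 ± 21.6 and 92.9 ± 20.4 TPM, respectively, in Brd1+/- mice given vehicle, against 2.70 ± 1.21 and 2.92 ± 1.20 TPM in WT controls (SD, n = 8 each; adjusted p = 2.39e-09 and 2.13e-09 in limma). They were the 2 called genes among 4 tested of a list of 10 structural RNAs. Malat1, a nuclear-retained noncoding RNA, had 797 ± 168 against 264 ± 55.0 TPM (SD, n = 8 each; adjusted p = 1.15e-05), the only one called of 7 in its list. Rn7s2, Rn7s1 and Malat1 therefore moved with AY036118 and CT010467.1 between the vehicle groups. Against Brd1+/- vehicle mice, Rn7s2, Rn7s1 and Malat1 fell in both FLX and IMN mice. Rn7s6, a further 7SL copy, was listed at 39.0 ± 18.7 TPM in Brd1+/- vehicle mice (SD, n = 8), where replicate 6 was at 0, and at 0 in every WT vehicle and every IMN library. In Brd1+/- FLX mice all but 1 library were at 0. It passed the filter on low values mainly through the group where it was high, so its call there is not used as support. In IMN mice the genotypes had 6.45 ± 2.99 (Brd1+/-) and 5.00 ± 2.86 TPM (WT) of Rn7s2 and 253 ± 62.9 and 398 ± 68.5 TPM of Malat1 (SD, n = 8 each; adjusted p = 1.00 and 0.526), so neither was called between the genotypes there. Within groups the r of Rn7s2 with the summed 3 genes was 0.30 (rho 0.35; 0.36 without the 2 farthest libraries). For Rn7sk this r was 0.41 (rho 0.47, and r = 0.50 without the 2 farthest libraries). The part of these RNAs in the result was not tested.

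All 17 lists were also counted in the other comparisons. Between IMN and vehicle in Brd1+/- mice 3 listed genes were called, Rn7s1, Rn7s2 and Malat1, where 0.776% of 24225 genes were. In the genotype comparisons of FLX and IMN mice and between FLX and vehicle in WT mice 0 listed genes were called by limma. At an unadjusted p under 0.05 there were 12 of 156, 11 of 157 and 25 of 156 tested, respectively. Over all genes the share at that level was 16.6%, 3.58% and 16.8%. Between IMN and vehicle in WT mice, and between FLX and IMN in either genotype, 0% of all genes were called by limma, with 1084, 1123 (WT) and 709 (Brd1+/-) at an unadjusted p under 0.05.

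Markers of cell types that a punch can hold were read beside these values. In the 9 marker lists 0 of 50 genes were called between genotypes in vehicle mice by limma. At an unadjusted p under 0.05 there were 13 of the 50, beside 8.52% of all genes tested. All 6 oligodendrocyte markers had higher means in Brd1+/- vehicle mice at an unadjusted p under 0.05, with a median log2 difference of 1.51, and their summed level ran from 2195 to 15522 TPM there and from 642 to 10381 TPM in WT vehicle mice. At that level all 6 were also higher in FLX than in vehicle WT mice (median 1.21), and lower in IMN than in vehicle Brd1+/- mice (median -1.03). For FLX against vehicle in Brd1+/- mice and IMN against vehicle in WT mice 0 of the 6 reached it. Of the astrocyte markers 3 of 6, and of the microglia markers 2 of 5, had an unadjusted p under 0.05. The astrocyte markers summed to between 815 and 1290.2 TPM in WT and between 896 and 1837 TPM in Brd1+/- vehicle libraries, and the microglia markers to between 179.8 and 225 and between 185 and 366 TPM. The choroid plexus markers summed to between 8.57 and 29563 TPM in WT and between 11.8 and 10719 TPM in Brd1+/- vehicle libraries, and the red blood cell markers to between 173 and 743 and between 215 and 987 TPM. The neuron markers summed to between 1729 and 4954 and between 2488 and 3307 TPM, and the amygdala markers to between 766 and 3268 and between 441.7 and 2634 TPM. No marker of these lists was at 0 in all libraries. The ranges of all these sums overlapped between genotypes, and their part in the result was not tested. Brd1+/- vehicle libraries also listed more genes above 0, with 26271 ± 802 against 25083 ± 472 in WT vehicle libraries (SD, n = 8 each).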

How the data were processed

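Per the study's methods and the labels, RNA from amygdala punches was made into libraries with a TruSeq kit and sequenced in single-end reads of 50 bases. The submitters' processing notes name HISAT2 2.1.0, StringTie 1.3.4, FastQC, Trimmomatic and the build GRCm38. The authors deposited TPM, 1 column per library, which keeps no depth, so no counting interval was computed. The selection of RNA by poly(A) tail or rRNA depletion and the use of strand are not given in the sources used here. Groups, doses and replicate numbers came from the labels, and no column was left unmapped. Nothing ties replicates to litters.

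Symbols, classes, coordinates (1-based) and transcript sequences came from GENCODE M21 on GRCm38, in which 52489 of 52636 gene IDs were found. Sequences, overlaps and exact shared runs were read from the transcripts. The sequence of Mir6236 is not reported here.

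Since TPM is not a count, log2(TPM + 0.1) was fitted with limma 3.58.1 (R 4.3.3, eBayes with trend) on the groups compared, in place of the authors' count test, over genes of at least 0.1 TPM in at least 8 libraries. Differences are on that log2 scale, which understates changes of low genes. Benjamini-Hochberg adjusted p-values over all genes under 0.05 were called, two-sided. Single genes were also compared by two-sided exact permutation tests over 12870 arrangements. The code was tested on simulated data. Named are the 3 genes, the mitochondrial rRNAs, the 5 genes most like their sum across libraries and up to 4 called genes per list. Rn7sk, and Gm26917, Rn7s2 and Malat1 in further comparisons, and Mir6236 by library, were described after their values were seen. The 3 genes, the lists and the tests were chosen with earlier results of these data known. Alternatives were pseudocounts of 0.01 and 1, no filter, a minimum of 1 TPM, median-ratio and quantile scaling, TPM rescaled without the 3 genes, eBayes without trend, 1 fit of 48 libraries, the replicate block, the code range and leaving out each library.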

Additional observations from a re-analysis of the deposited data

Results flagged for a closer look

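Single libraries stood apart in 8 of the 24 groups examined for the 3 genes and Gm26917, where the gap to the nearest library exceeded 0.526 of the range of 8 libraries. For independent, normally distributed values this cut-off gives about 1 in 20. Here it was applied to TPM without a log, and AY036118 and CT010467.1 vary together. The 2 rates can therefore not be set against each other. Brd1+/- vehicle replicate 3 had 3374 TPM of AY036118 (next library 1434 TPM), 1012 TPM of CT010467.1 (next 462 TPM) and 24.9 TPM of Gm26917 (next 9.33 TPM). Brd1+/- IMN replicate 6 had 1466 TPM of AY036118 (next 957 TPM) and 481 TPM of CT010467.1 (next 329 TPM). Brd1+/- IMN replicate 7 had 105.4 TPM of Gm42418 (next 48.5 TPM). For Gm26917, WT vehicle replicate 1 had 11.7 TPM (next 6.50 TPM) and WT FLX replicate 2 had 10.2 TPM (next 7.36 TPM).

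The FLX effect differed between genotypes for AY036118, by -1.50 on the log2 scale (adjusted p = 0.0277 in limma), and for CT010467.1, by -1.25 (adjusted p = 0.0397).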

How the results depend on the processing

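The genotype difference in vehicle mice kept its direction and its call for AY036118 and CT010467.1 when any 1 library was left out (adjusted p up to 0.0254 and 0.0373 in limma) and under all alternatives but the replicate block. With the replicate block, AY036118 (1.41, adjusted p = 0.0785) and CT010467.1 (1.16, adjusted p = 0.117) lost the call, as did the FLX interaction of CT010467.1 (-1.25, adjusted p = 0.0551); the numbers do not pair the mice by any source, and at most 4 of the 8 same-numbered pairs of a comparison had deviations correlated above 0.1. A code-range term gave that interaction -1.22 (adjusted p = 0.0523), and leaving out 1 library gave -1.35 to -1.07. For FLX against vehicle in Brd1+/- mice, median-ratio scaling gave AY036118 -1.24, which was called. The fit of 48 libraries gave AY036118 -1.28 and CT010467.1 -1.09, both called, though that fit draws on the IMN libraries that chose these genes. Leaving out 1 library gave -1.39 to -1.08 and -1.18 to -0.91. Under the remaining alternatives neither gene was called. Between genotypes in FLX mice, leaving out 1 library gave AY036118 -0.22 to 0.02 and CT010467.1 -0.19 to 0.02, with single values of 0.002, 0.003, 0.018 and 0.006, 0.020 of the other sign. Gm42418 moved by more than its spread within the code ranges. It gave -2.97 in the higher range (2 against 4 libraries) and -1.39 in the lower between genotypes in IMN mice, and -2.13 (2 against 5) and 0.74 for IMN against vehicle in Brd1+/- mice, whose codes do not overlap. For FLX against IMN it gave 3.48 (3 against 2) and 1.55 in Brd1+/- mice, and 0.38 and -0.88 (3 against 4) in WT mice. The cause was not tested. Counts of called genes summed over all lists but the marker lists stayed within 1.5 times, although the 1 call of class rRNA was lost with a minimum of 1 TPM. Depth, unknown from TPM, could not be weighed. Values within the code ranges in comparisons without IMN libraries, the block in comparisons with them, and ratios without the highest library were added after seeing the data.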
